A study of Mus musculus with 6 samples.

Results

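The tetraspanins are described here as 26 mouse genes measured on Affymetrix arrays in 2 lines of immortal melanocytes, the pigment cells of the skin, hair and eye. They are all genes whose symbol is Tspan followed by a number, together with Cd9, Cd37, Cd53, Cd63, Cd81, Cd82 and Cd151, taken from 22180 genes that had a probe set with a single gene symbol. Each gene is represented by 1 probe set, chosen as the brightest on average across the 6 arrays. Cd9 was the only member with a second probe set. The Sox10 LacZ/+ line, called heterozygous here, carries a LacZ insertion in 1 allele of Sox10, a transcription factor gene of the neural crest, and derives from Ink4a-Arf null mice of 3 days of age. The line melan-Ink4a-Arf-1 (labelled also as melan-a) is wild type for Sox10 and carries Cdkn2a tm1RDp on both alleles. Thus both lines are labelled as lacking Ink4a-Arf (Cdkn2a), both are on a C57BL/6J background, and both were grown in medium with 10% serum, 200 nM of a phorbol ester (12-O-tetradecanoylphorbol 13-acetate) and 200 pM of cholera toxin. Each line was measured on 3 arrays, and each genotype is represented by 1 line, so genotype and line cannot be told apart.

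Tetraspanins are small proteins that cross the membrane 4 times and expose a large and a small loop outside the cell. They have few ligands of their own. They bind other membrane proteins, among them integrins, immunoglobulin superfamily proteins, the protease ADAM10 and Frizzled receptors, and control how these leave the endoplasmic reticulum, cluster at the surface or are sorted in endosomes. In pigment cells the best known member is CD63, a protein of late endosomes that takes part in sorting the fibril protein PMEL during melanosome formation.

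The comparison asks how expression differs in melanocytes with 1 intact copy of Sox10. Values are log2 signals, and differences are heterozygous minus wild type, so that a difference of 1 is a 2-fold change. A gene passed at a limma adjusted p below 0.05 (Benjamini-Hochberg over all 22180 genes). Sox10 itself had 9.70, 9.70 and 9.79 on the heterozygous arrays, against 9.98, 9.80 and 9.95 on the wild-type arrays. The lines did not overlap, and the difference of −0.18 (SE 0.08) did not pass (adjusted p 0.213). Where the Sox10 probes lie relative to the LacZ insertion is not known here. The Cdkn2a probe set averaged 7.07 in heterozygous and 7.16 in wild-type cells; where its probes lie relative to the deleted part is not known here, so it does not check the labels. Array medians lay between 5.72 and 5.78. Wild-type replicate 2 stood apart from the other wild-type arrays for several tetraspanins, and its effect is given beside many of these genes. Of 8 melanocyte markers, all were above the 40th percentile of the probe sets in both lines. Of these 8, 3 fell, 1 rose and the other 4 did not pass. Thus 50% passed, where 13.4% of all genes did. The pigment enzyme gene Tyr differed by −2.10 (adjusted p 1.28e-05), the melanosomal transporter gene Oca2 by −0.88 (adjusted p 0.000382) and the pigment enzyme gene Dct by −0.68 (adjusted p 0.000404), while the transcription factor gene Mitf, on chromosome 6, differed by 0.67 (adjusted p 0.000439).

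Of the 26 tetraspanin genes, 11 passed, 9 of them higher (Tspan12, Tspan11, Tspan9, Tspan10, Tspan5, Tspan6, Cd82, Cd9 and Tspan14) and 2 lower (Tspan17 and Tspan3) in the heterozygous line. Over all genes, 13.4% passed, 7.46% as higher and 5.92% as lower. At least 2-fold differences were found for 5 members, 4 higher and 1 lower, where 3.53% of all genes reached that size and passed, 1.94% higher and 1.59% lower. For 15 of the 26, every array of one line lay on the same side of every array of the other, as it did for 31.6% of all genes. The median difference of the tetraspanins was close to 0, at −0.0003, with 13 positive and 13 negative values; over all genes it was 0.0014. The median size of the difference, regardless of sign, was 0.29 for the tetraspanins and 0.12 for all genes. Median signals were 8.82 for the tetraspanins and 6.16 for all genes. Among the 14931 genes above the 40th percentile in at least 1 line, 18.8% passed, as did 11 of the 23 tetraspanins above it. Without wild-type replicate 2, 12 tetraspanins passed, 9 higher and 3 lower, and with any of the heterozygous arrays left out 7 passed, all higher. Over all genes, 4222 passed without wild-type replicate 2 and 1768 to 1817 with a heterozygous array left out.

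**Figure D1:**
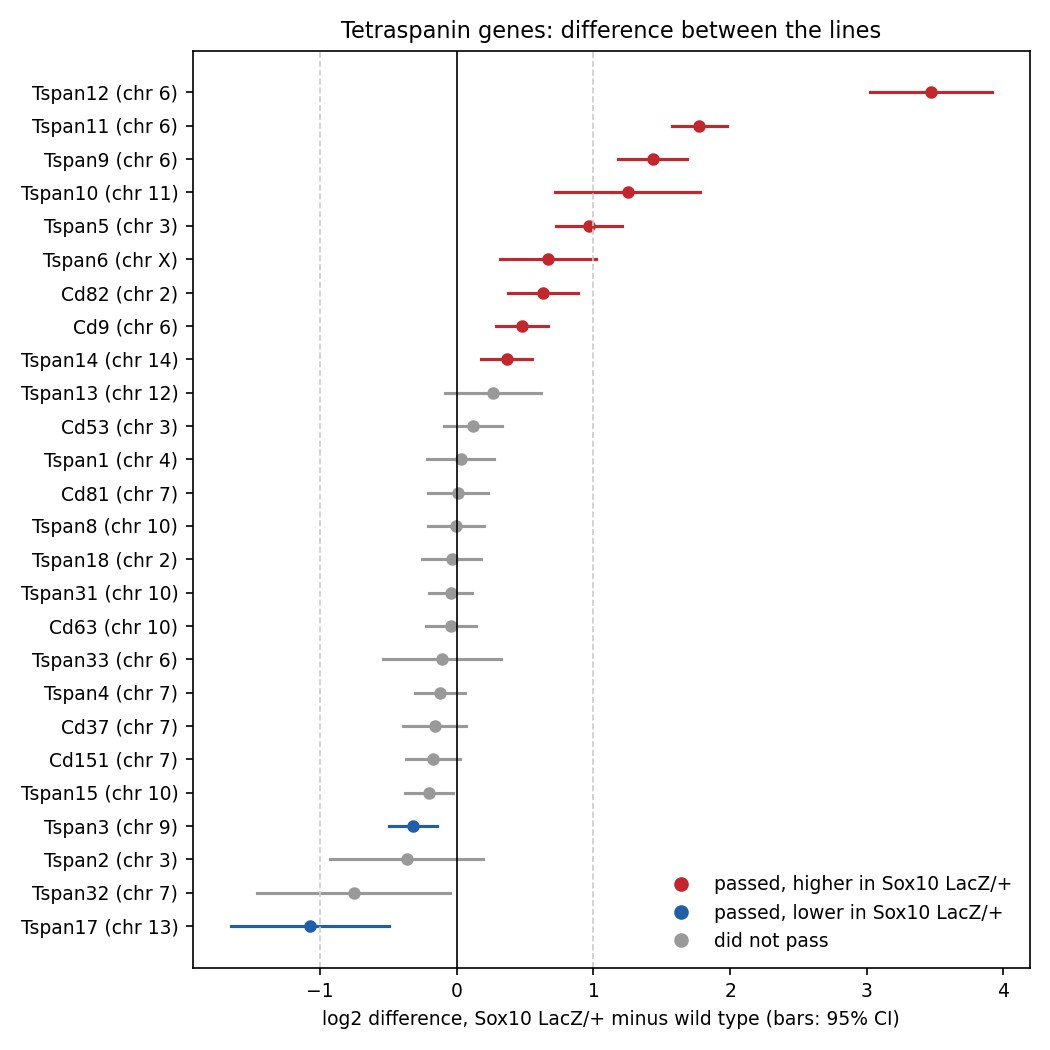
Log2 difference between the heterozygous and the wild-type line (x axis) for each of the 26 tetraspanin genes (y axis, with chromosome); points are estimates from 3 arrays per line and bars their 95% confidence intervals. Tspan12 lies farthest to the right at 3.47 and Tspan17 farthest to the left at −1.08, and dashed lines mark 2-fold differences.

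The promoters of the member with the largest rise, of the pigment cell member Tspan10 and of the member with the largest fall are printed to show the sequence before an annotated start of transcription. The sequences are from RefSeq, build GRCm38.p6, and give the 250 bases before the annotated start, read 5′ to 3′ on the strand of the gene. Of the 26 members, 25 had an entry, and the start listed first was used for each gene. For Tspan12 and Tspan17 this start lies inside the annotated span of the gene, downstream of its outer end. Capitals mark matches to ACAAAG or ACAATG, core words bound by SOX proteins, and to CATGTG or CACGTG, E-box words bound by MITF, searched on both strands.
Tspan12 (chr6:21852534-21852783, minus strand): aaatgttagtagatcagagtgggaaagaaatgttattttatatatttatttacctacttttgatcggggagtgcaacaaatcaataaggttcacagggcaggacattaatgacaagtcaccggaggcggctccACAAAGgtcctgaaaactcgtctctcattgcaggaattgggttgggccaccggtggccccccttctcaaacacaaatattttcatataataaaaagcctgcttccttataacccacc
Tspan10 (chr11:120442381-120442630, plus strand): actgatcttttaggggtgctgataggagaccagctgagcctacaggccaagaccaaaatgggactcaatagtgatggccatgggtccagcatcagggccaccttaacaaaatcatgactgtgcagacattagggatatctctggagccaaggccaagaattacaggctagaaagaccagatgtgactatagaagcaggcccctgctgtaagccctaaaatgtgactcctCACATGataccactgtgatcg
Tspan17 (chr13:54789155-54789404, plus strand): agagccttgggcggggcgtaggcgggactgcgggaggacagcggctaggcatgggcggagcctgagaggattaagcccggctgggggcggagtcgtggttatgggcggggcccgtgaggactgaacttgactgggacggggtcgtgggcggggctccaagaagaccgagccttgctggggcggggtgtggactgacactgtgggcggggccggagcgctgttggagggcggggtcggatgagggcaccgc
The Tspan12 window held ACAAAG beginning 117 bases before the start, the Tspan10 window held the reverse complement of CATGTG beginning 21 bases before the start, and the Tspan17 window held neither kind of word. A SOX word stood in 8 of the 25 tetraspanin windows and in 25.5% of the 27025 promoters in the reference. An E-box word stood in 5 of the 25 and in 17.6% of all promoters. Among the 11 members that passed, 2 had a SOX word (Tspan12 and Tspan9) and 4 an E-box word (Tspan9, Tspan10, Cd9 and Tspan3). Among the 14 with an entry that did not pass, 6 had a SOX word and 1 an E-box word. A match describes the letters of the window and shows no binding.

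Tspan12 had the largest difference of the family. Its protein is a co-receptor that, in mouse retinal vessels, strengthens signalling from the ligand Norrin through the receptor FZD4. The signal was 10.31, 10.45 and 10.37 on the heterozygous arrays, against 6.55, 7.39 and 6.78 on the wild-type arrays. All heterozygous arrays were far above all wild-type arrays, and wild-type replicate 2 was the highest of its group. The difference was 3.47 (SE 0.19, adjusted p 1.18e-05), which is 11.1-fold, and it ranked as 34 among the rises of all genes. Without wild-type replicate 2 it was 3.71.

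The receptor gene Fzd4 differed in the same direction. It had 10.41, 10.15 and 10.22 in the heterozygous line, against 6.39, 5.99 and 6.16 in the wild type, a difference of 4.08 (SE 0.12, adjusted p 3.46e-07). The groups were widely separated. The other 4 genes of the Norrin receptor group did not pass: the co-receptor genes Lrp5 (0.11) and Lrp6 (0.06), the beta-catenin gene Ctnnb1 (−0.03), and the Norrin gene Ndp, whose signal was below the 40th percentile of probe sets in both lines (4.73 in heterozygous and 4.63 in wild-type cells). These 4 were named after their values were seen. The share of the 5 genes that passed was 20%, against 13.4% of all genes. It was 18.8% of the brighter genes, those above the 40th percentile of probe sets in at least 1 line.

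The TspanC8 tetraspanins, which carry ADAM10 out of the endoplasmic reticulum and influence which substrates it cuts, moved in both directions. Of the 6 members, Tspan10, Tspan5 and Tspan14 rose, Tspan17 fell, and Tspan15 and Tspan33 did not pass. Thus 66.7% passed, against 13.4% of all genes and 18.8% of the brighter genes. Tspan10, known as oculospanin from its expression in the eye, had 9.87, 10.13 and 10.15 in the heterozygous line, against 8.68, 9.36 and 8.36 in the wild type. Wild-type replicate 2 was nearest to the heterozygous arrays, and the lines did not overlap. The difference was 1.25 (SE 0.23, adjusted p 0.00922), and 1.53 without that array.

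Tspan5 had 7.78, 7.67 and 8.03 in heterozygous cells, against 6.92, 6.80 and 6.86 in wild-type cells. The groups were clearly apart, with a difference of 0.97 (SE 0.10, adjusted p 0.000537). Tspan14 differed less, with 11.54, 11.61 and 11.59 in the heterozygous line, against 11.28, 11.09 and 11.28 in the wild type. Its arrays did not overlap, and the difference of 0.37 (SE 0.08, adjusted p 0.0208) lost its call when any heterozygous array was left out (adjusted p 0.0665 to 0.0878).

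Tspan17 was the TspanC8 gene that fell. It had 10.01, 10.12 and 10.04 in the heterozygous line, against 11.56, 10.47 and 11.37 in the wild type. Wild-type replicate 2 lay close to the heterozygous arrays and about 1 log2 unit below the other wild-type arrays (−0.997), so the size of the fall depends on it. The difference was −1.08 (SE 0.25, adjusted p 0.0262); it was −1.41 (adjusted p 3.98e-05) without wild-type replicate 2, and missed the threshold on dropping any of the other arrays (adjusted p 0.0803 to 0.0953). Tspan15 had 9.92 ± 0.04 in heterozygous and 10.12 ± 0.09 in wild-type cells (SD, n = 3 each), a difference of −0.20 that did not pass by limma (adjusted p 0.141) although the arrays did not overlap. Tspan33 had 5.59 ± 0.31 in heterozygous and 5.70 ± 0.29 in wild-type cells, and its groups overlapped.

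Among the genes of ADAM10, related proteases and ADAM10 substrates, 11 of 12 listed were on the arrays. Of these 11, 6 fell, 2 rose and the other 3 did not pass. The share that passed was 72.7%, against 13.4% of all genes and 18.8% of the brighter genes. L1cam, a neural adhesion molecule gene, differed by −2.30 (SE 0.19, adjusted p 0.00013), the adhesion gene Alcam by −1.06 (SE 0.07, adjusted p 2.95e-05), the N-cadherin gene Cdh2 by −0.45 and the ephrin gene Efna5 by 0.40. Adam10 itself, singled out after its value was seen, had 11.52, 11.47 and 11.48 in heterozygous cells, against 11.90, 11.65 and 11.92 in wild-type cells. It was lower on every heterozygous array, with a difference of −0.33 at the edge of the threshold (adjusted p 0.0485). It passed at 0.0046 when wild-type replicate 2 was dropped and missed the threshold when another array was dropped (0.126 to 0.156). It also missed with arrays centred on their medians (0.0526) or quantile normalized (0.0661), and over all its alternatives the adjusted p of Adam10 ran from 0.0046 to 0.156. Efna5 lost its call without any array other than wild-type replicate 2, and Cdh2 without any heterozygous array or wild-type replicate 1 (adjusted p up to 0.146 and 0.0653).

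**Figure D2:**
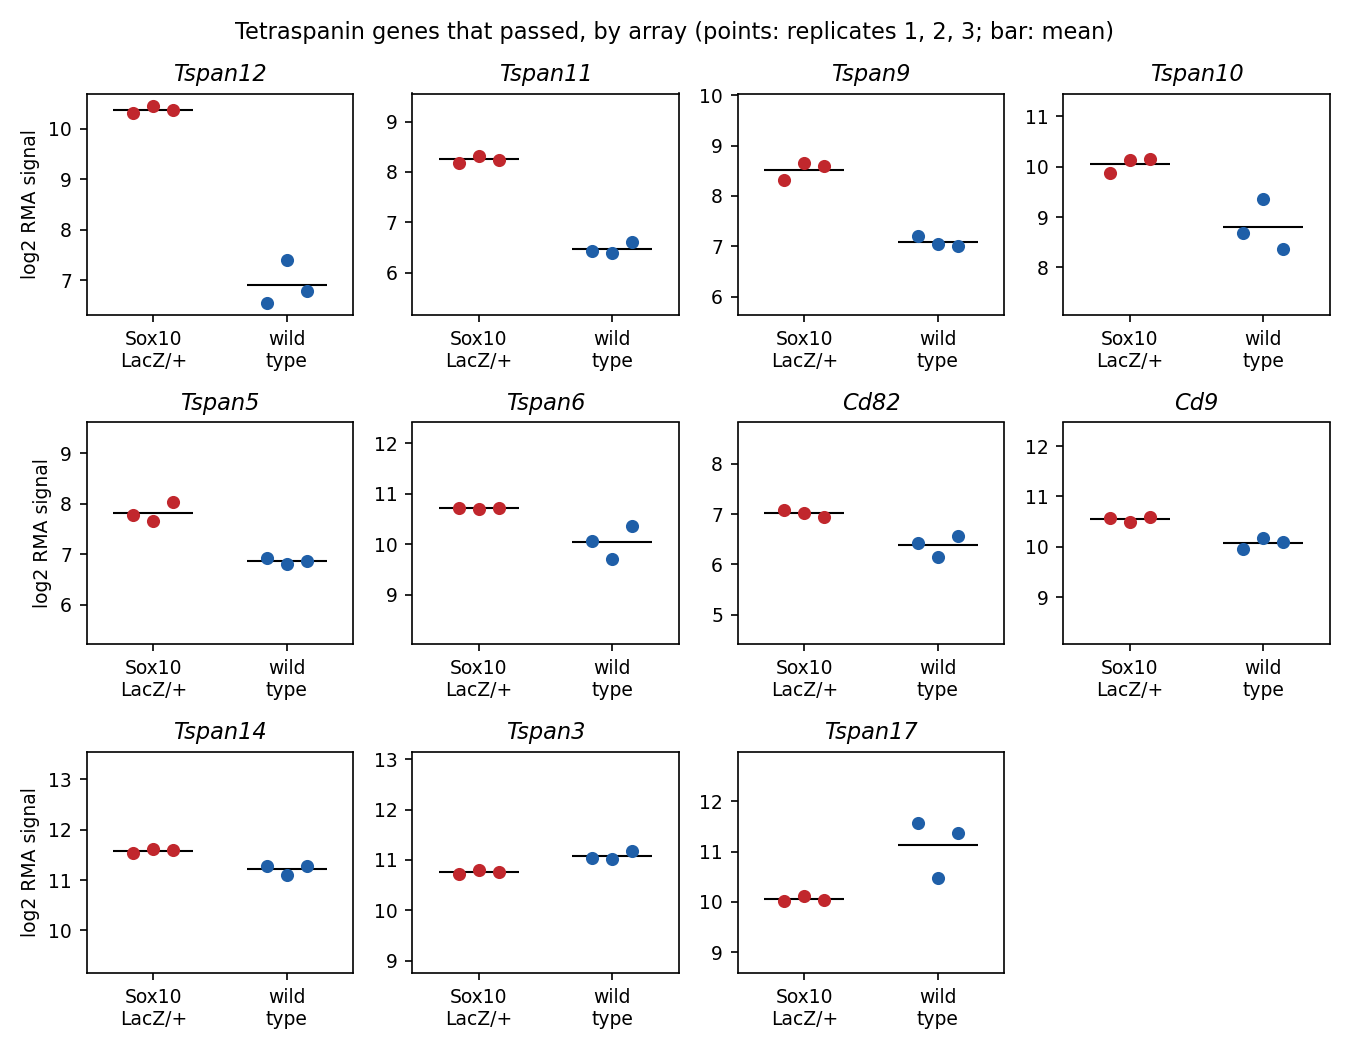
Log2 signal (y axis) of the 11 tetraspanin genes that passed, with the heterozygous arrays on the left and the wild-type arrays on the right of each panel; points are replicates 1, 2 and 3 from left to right, bars are means, and each y axis spans the same number of log2 units. The lines do not overlap in any panel, and wild-type replicate 2 is nearest to the heterozygous arrays in Tspan12, Tspan10, Cd9, Tspan3 and Tspan17.

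The tetraspanins best known as organisers of adhesion receptors at the cell surface were Cd9, Cd81, Cd82 and Cd151. Cd82, whose protein restrains cell movement and is known as a metastasis suppressor, had 7.08, 7.02 and 6.94 in the heterozygous line, against 6.43, 6.16 and 6.57 in the wild type. All heterozygous arrays were higher, with a difference of 0.63 (SE 0.11, adjusted p 0.00777), and of 0.52 without wild-type replicate 2. Cd9, needed on the egg for fusion with sperm, had 10.58, 10.48 and 10.58 in heterozygous cells, against 9.95, 10.17 and 10.09 in wild-type cells. Its groups did not overlap either, with a difference of 0.48 (SE 0.08, adjusted p 0.00683). The second probe set of Cd9 was also higher in the heterozygous line, at 6.23 against 5.99 in the wild type (a difference that was not tested by itself).

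Cd81, a broadly expressed tetraspanin gene, had 13.00 ± 0.03 in heterozygous and 13.00 ± 0.16 in wild-type cells (SD, n = 3 each), with a 95% confidence interval of the difference from −0.21 to 0.22. Wild-type replicate 2 was its lowest array, and without it the difference was −0.09. Cd151, which binds laminin-binding integrins, had 12.34, 12.34 and 12.29, against 12.61, 12.35 and 12.53 in the wild type. The heterozygous arrays were all lower, but the difference of −0.17 did not pass (adjusted p 0.27). Without wild-type replicate 2 it was −0.25 and narrowly missed the threshold (limma adjusted p 0.0507).

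Integrin genes, which encode receptors for the extracellular matrix, moved in both directions. Of 11 on the arrays, 5 fell, 2 rose and the other 4 did not pass. Thus 63.6% passed, against 13.4% of all genes and 18.8% of the brighter genes. The largest changes among those that passed were in Itga7 (−0.99, adjusted p 0.0456) and Itga3 (−0.53, adjusted p 0.00905), which encode laminin-binding subunits, Itga5 (0.57, adjusted p 0.0157), which encodes the fibronectin-binding subunit, and Itgb3 (−0.48, adjusted p 0.0097). Itga7 had a low wild-type replicate 2, at 7.50 against 8.70 and 8.29, and missed the threshold on dropping any of the other arrays (adjusted p up to 0.14). Itga5 lost its call without any heterozygous array (adjusted p up to 0.0712), and Itgb3 without heterozygous replicate 3 (adjusted p 0.0521). Itgb1, the common beta subunit, and Itga6, a partner of CD151, were named after their values were seen and did not pass (−0.03, and −0.48 with an adjusted p of 0.0632); Itga6 passed without wild-type replicate 2 (adjusted p 0.00083).

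Of 5 genes of immunoglobulin superfamily partners, 3 rose, 1 fell and 1 did not pass. Thus 80% passed, against 13.4% of all genes and 18.8% of the brighter genes. Ptgfrn, whose protein binds CD9 and CD81 directly, had 8.40, 8.25 and 8.65 in heterozygous cells, against 5.62, 5.72 and 5.19 in wild-type cells, a difference of 2.92 (SE 0.16, adjusted p 9.75e-06). The groups were far apart. Igsf8, the related partner gene, rose by 0.46 (adjusted p 0.00726), Vcam1 rose by 0.98 (adjusted p 0.000212), and Igsf3 differed by −0.42 (adjusted p 0.031). Igsf3 kept its call without wild-type replicate 2 and lost it with any other array left out (adjusted p 0.0925 to 0.112).

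Among endosomal and exosomal tetraspanins, Cd63 did not differ beyond the spread of its arrays. It had 11.33, 11.30 and 11.39 in the heterozygous line, against 11.40, 11.46 and 11.28 in the wild type. The groups overlapped, with a difference of −0.05 and a 95% confidence interval from −0.23 to 0.14. Among 13 genes measured of a mixed list of further partners, 3 fell, 3 rose and the other 7 did not pass. The share that passed was 46.2%, against 13.4% of all genes and 18.8% of the brighter genes. Timp1, an inhibitor gene of matrix proteases whose human protein binds CD63, had 6.18, 5.97 and 6.19 in heterozygous cells, against 9.70, 9.52 and 9.51 in wild-type cells, a difference of −3.46 (SE 0.09, adjusted p 2.33e-07). The groups were far apart. Gpr143, a melanosomal receptor gene, differed by −1.002 (adjusted p 0.01), the membrane protease gene Mmp14 by 0.67 (adjusted p 0.00752) and Met, the receptor gene for hepatocyte growth factor, by 0.53 (adjusted p 0.00974). Met lies on chromosome 6 and missed the threshold once heterozygous replicate 3 was dropped (adjusted p 0.0501).

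Of 12 genes for exosome formation and release, 2 rose and 10 did not pass, a share of 16.7%, against 13.4% of all genes and 18.8% of the brighter genes. Both are Rab GTPases of secretion: Rab27b had 7.45, 7.31 and 7.37 in heterozygous cells, against 5.63, 5.83 and 5.79 in wild-type cells, a difference of 1.63 (SE 0.08, adjusted p 7.66e-06). Rab27a, which also carries melanosomes to the cell edge, differed by 0.74 (adjusted p 0.0216); it kept its call without wild-type replicate 2 and lost it with any other array left out (adjusted p up to 0.0854).

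**Figure D3:**
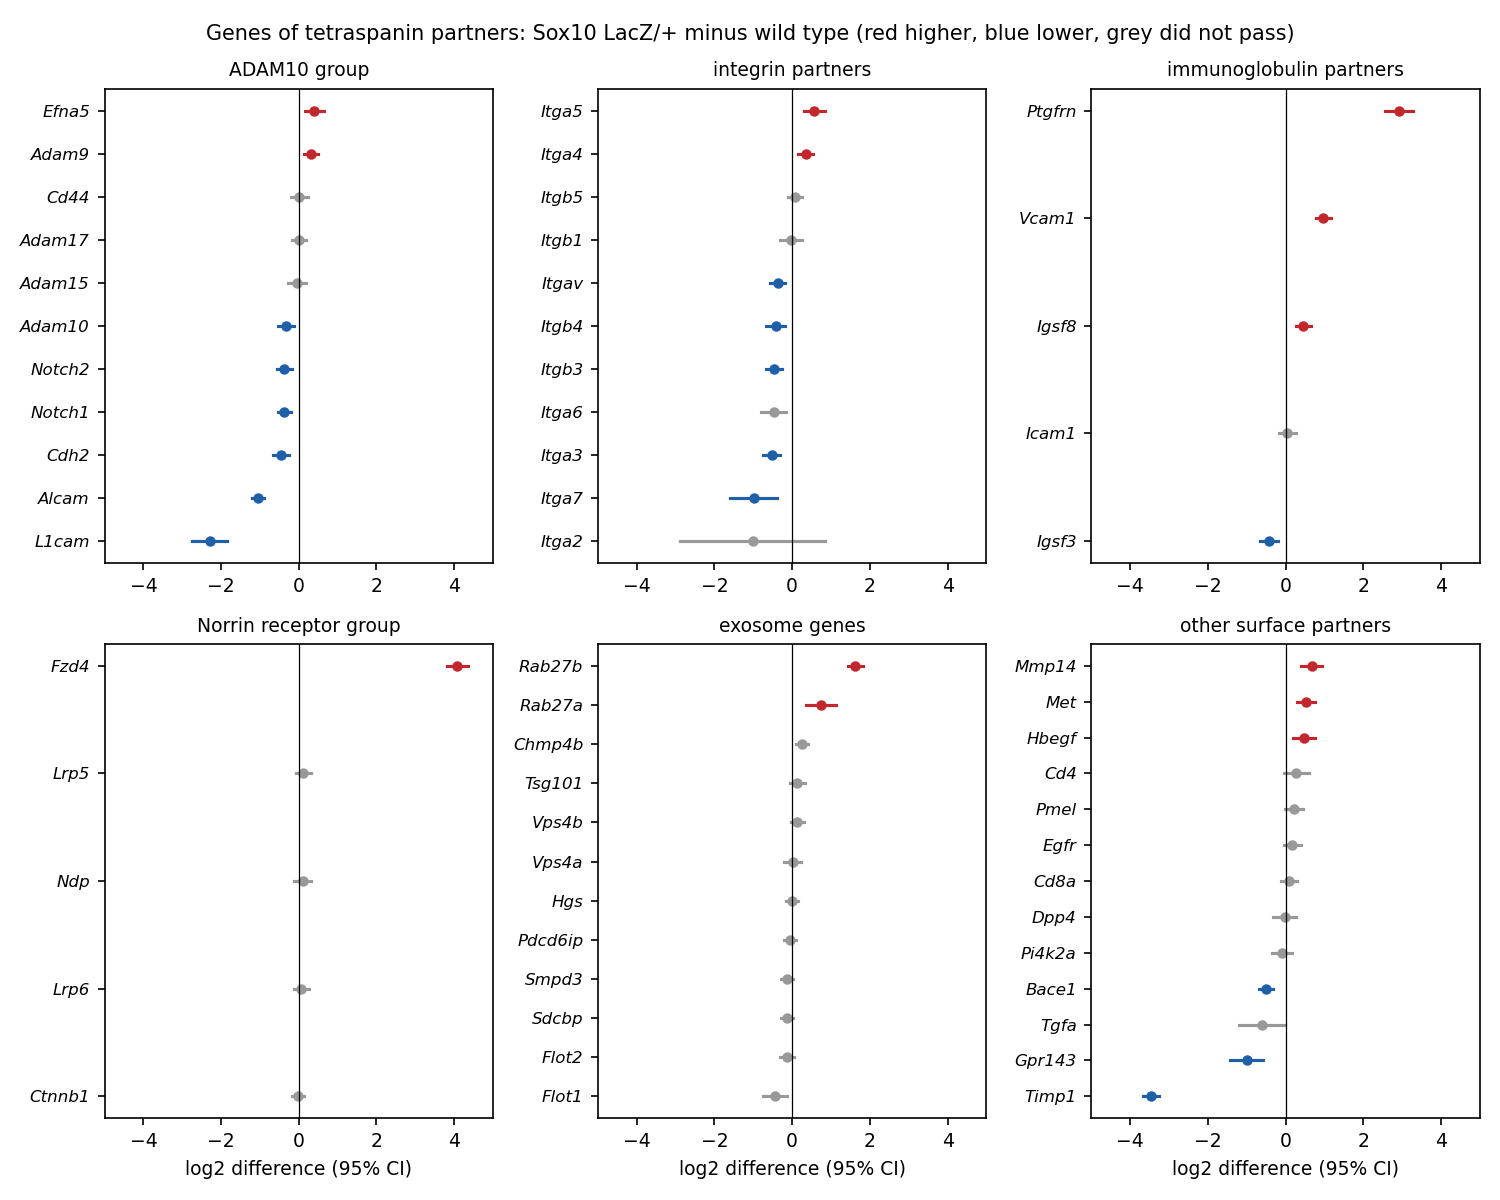
Log2 difference between the heterozygous and the wild-type line (x axis, with 95% confidence intervals) for genes of 6 lists of tetraspanin partners (y axis); red genes passed and were higher, blue genes passed and were lower, grey genes did not pass. Fzd4 at 4.08, Ptgfrn at 2.92 and Timp1 at −3.46 lie farthest from 0.

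Tspan11 and Tspan9 followed Tspan12 in size. Tspan11 had 8.18, 8.32 and 8.24 in the heterozygous line, against 6.43, 6.39 and 6.60 in the wild type, a difference of 1.78 (SE 0.09, adjusted p 5.40e-06). Tspan9, a tetraspanin gene of platelets, had 8.31, 8.65 and 8.60 in heterozygous cells, against 7.20, 7.04 and 7.01 in wild-type cells, a difference of 1.43 (SE 0.11, adjusted p 7.76e-05). In both genes the lines were well apart and the replicates close together. They lie next to each other on chromosome 6, with 0 measured genes between them, and 19 measured genes separate Tspan11 from Cd9.

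Chromosome 6 holds 5 of the 26 members, and 4 of these rose (Tspan12, Tspan11, Tspan9 and Cd9), whereas Tspan33 did not pass. Many other genes of the chromosome were also higher in the heterozygous line. Of its 1201 genes, 20.6% passed as higher, against 6.72% of the genes on all other chromosomes. The median difference of its brighter genes, those above the 40th percentile of probe sets in at least 1 line, was 0.23, where the medians of the 18 other autosomes lay between −0.03 and 0.02. Less the chromosome median, the differences were 3.24 for Tspan12, 1.54 for Tspan11, 1.20 for Tspan9 and 0.25 for Cd9. The 10 nearest brighter genes had a median difference of 0.94 around Tspan12, with 6 of them higher and 0 lower, of 0.33 around Tspan11, of 0.30 around Tspan9 (these neighbours include each other) and of 0.07 around Cd9. With the genes of chromosome 6 left out, 7 of the remaining 21 tetraspanins passed, 5 higher and 2 lower, and 2 of them at least 2-fold. Over all genes, 2650 then passed, 1391 higher and 1259 lower. In the main fit, 6.72% of the genes on the other chromosomes passed as higher and 6.11% as lower. Of all genes, chromosome 6 included, 3.53% passed there with at least a 2-fold difference. The part of the chromosome-wide shift in the 4 rises was not tested.

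**Figure D4:**
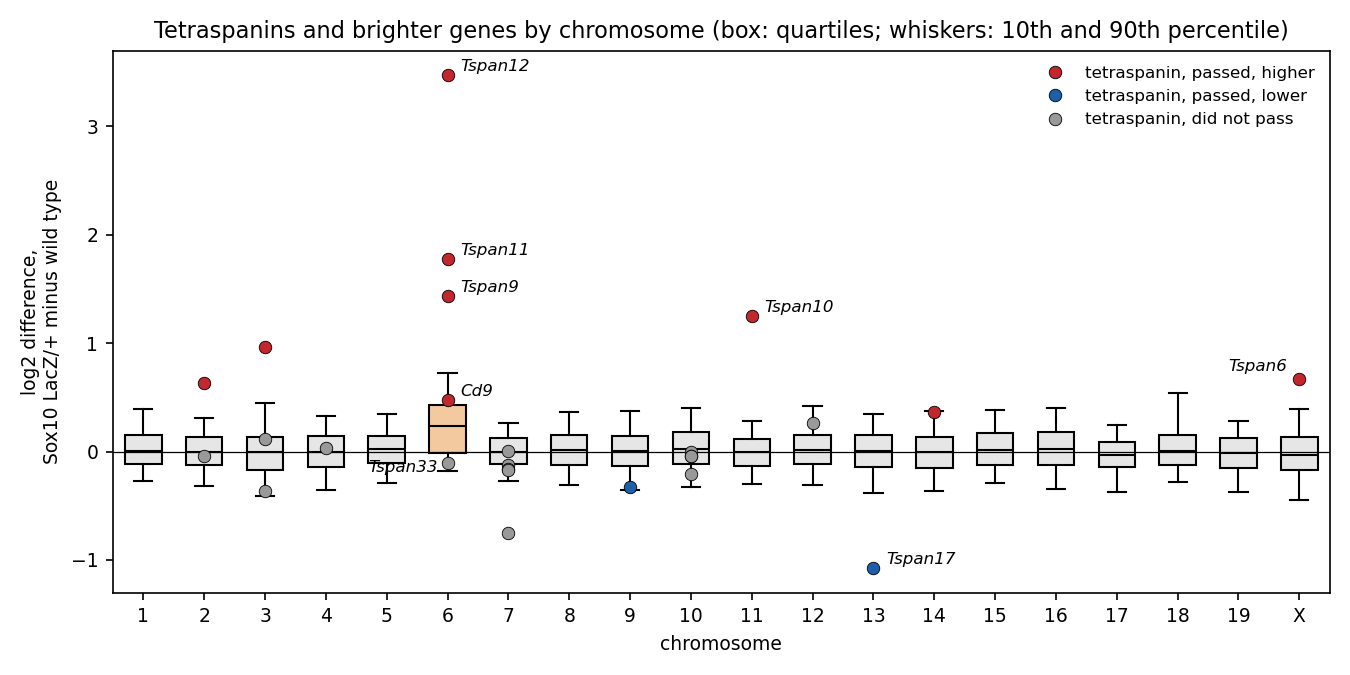
Log2 difference between the heterozygous and the wild-type line (y axis) by chromosome (x axis); boxes show the quartiles of brighter genes, whiskers the 10th and 90th percentiles, and points the tetraspanins. The box of chromosome 6, in orange, sits higher than those of the other chromosomes, with a median of 0.23, and Tspan12, Tspan11 and Tspan9 lie above its upper whisker.

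Tspan6 is the one member on the X chromosome. It had 10.73, 10.69 and 10.71 in the heterozygous line, against 10.06, 9.71 and 10.37 in the wild type. The heterozygous arrays were higher and close together, and wild-type replicate 2 was the lowest array. The difference was 0.67 (SE 0.15, adjusted p 0.0234), and 0.50 without wild-type replicate 2; the call was lost without any heterozygous array or wild-type replicate 1 (adjusted p 0.0773 to 0.0843). The lines also differ in sex-linked genes. Xist, the RNA of the inactive X chromosome, averaged 11.06 in heterozygous and 4.81 in wild-type cells, and the Y-linked gene Eif2s3y averaged 4.43 in heterozygous and 9.28 in wild-type cells. The median difference of the brighter X-linked genes was −0.03. A difference in sex and the genotype cannot be told apart.

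Tetraspanin genes known from oligodendrocytes were Tspan3 and Tspan2. Tspan3 had 10.72, 10.80 and 10.76 in heterozygous cells, against 11.05, 11.02 and 11.18 in wild-type cells. The lines did not overlap, with a difference of −0.32 (SE 0.08, adjusted p 0.0279). The call held without wild-type replicate 2 and was lost with any other array left out (adjusted p 0.0613 to 0.117). Tspan2 had 8.81, 8.83 and 8.79 in the heterozygous line, against 9.48, 8.52 and 9.53 in the wild type. Wild-type replicate 2 lay below all heterozygous arrays and the other wild-type arrays above them, so the groups overlapped and the difference of −0.37 did not pass (adjusted p 0.417). Without wild-type replicate 2 it was −0.70 and passed (adjusted p 0.000423). Schwann cell markers moved beside these genes: of 5 measured, 3 fell, a share of 60%, against 13.4% of all genes. The summed linear signal of the 5 was 287 to 325 on the heterozygous and 4418 to 5028 on the wild-type arrays. Most of that sum came from Gjc3 (5.77 in heterozygous and 11.70 in wild-type cells) and Cadm4 (6.78 in heterozygous and 10.09 in wild-type cells). S100b was the third that fell (5.15 in heterozygous and 7.85 in wild-type cells), while the myelin gene Mbp (a difference of −0.12) and Egr2 (−0.16) did not pass. Their part in the values of Tspan3 and Tspan2 was not tested.

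Other broadly expressed members did not pass. Tspan31, a gene amplified in human sarcomas, had 11.99 ± 0.04 in heterozygous and 12.03 ± 0.03 in wild-type cells (SD, n = 3 each), with a 95% confidence interval of the difference from −0.20 to 0.11. Tspan4, whose protein builds migrasomes, the vesicles left behind by moving cells, had 9.82 ± 0.07 in heterozygous and 9.94 ± 0.09 in wild-type cells. Tspan13 had 7.88 ± 0.18 in heterozygous and 7.61 ± 0.28 in wild-type cells. Tspan18, a gene of endothelial cells, had 5.74 ± 0.12 in heterozygous and 5.78 ± 0.10 in wild-type cells. All 4 had overlapping groups. Tspan18 lies beside Cd82 on chromosome 2 with 1 measured gene between them, and only Cd82 passed; the difference between the 2 genes was not tested.

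Cd53, Tspan1, Tspan8, Cd37 and Tspan32, known from blood cells or epithelia, were dim or did not pass. Cd53, Tspan1 and Tspan8 were below the 40th percentile of probe sets in both lines, with means of 3.56 to 4.81 in heterozygous and 3.57 to 4.69 in wild-type cells. Cd37, a leukocyte gene, had 5.73 ± 0.15 in heterozygous and 5.89 ± 0.11 in wild-type cells, and did not pass. Tspan32, a gene of blood-forming cells, had 6.18, 6.22 and 6.33 in the heterozygous line, against 6.74, 7.82 and 6.46 in the wild type. The heterozygous arrays were lower than all wild-type arrays, of which replicate 2 was the highest, and the difference of −0.76 did not pass (adjusted p 0.167); without that array it was −0.35. Tspan32 and Cd81 have 1 measured gene between them on chromosome 7. Of 9 leukocyte markers, 0 passed by limma and 3 had an unadjusted p below 0.05 (24.9% of all genes did); Ptprc, the pan-leukocyte gene, averaged 4.004 in heterozygous and 3.91 in wild-type cells, and 6 of the 9 were below the 40th percentile in both.

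Tetraspanin genes outside the symbol rule and a family of similar shape showed no call. Of Upk1a, Upk1b, Prph2 and Rom1, which encode uroplakins and photoreceptor disc proteins, 0 passed by limma and 0 had an unadjusted p below 0.05, with differences from −0.15 to 0.01; Upk1a averaged 5.87 in heterozygous and 5.86 in wild-type cells, and Prph2 averaged 6.02 in heterozygous and 6.13 in wild-type cells. Proteins of the L6 family also cross the membrane 4 times but are not tetraspanins. Of 5 genes of this family, 0 passed and 0 had an unadjusted p below 0.05, and 3 were dim, that is, not among the brighter genes. Tm4sf5 averaged 6.07 in heterozygous and 6.12 in wild-type cells, and Tm4sf1 averaged 11.20 in heterozygous and 11.27 in wild-type cells. For comparison, 13.4% of all genes passed and 24.9% had an unadjusted p below 0.05. Lists of 4 and 5 genes are too small to set 0 calls apart from these shares.

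The spread between arrays was smaller in the heterozygous line. The median SD of the tetraspanins was 0.07 in heterozygous and 0.11 in wild-type cells, and over all genes it was 0.08 in heterozygous and 0.12 in wild-type cells. Among the 11 members that passed, wild-type replicate 2 was the wild-type array nearest to the heterozygous mean in 5, the farthest in 5 and between the others in 1. With each array left out in turn, 7 of the 11 (Tspan12, Tspan11, Tspan9, Tspan10, Tspan5, Cd82 and Cd9) passed every time, all of them higher in the heterozygous line. Over all genes, 2967 passed with all arrays and 1768 to 4222 with single arrays left out. The share of all called genes that passed every time was not computed, so the 7 have no background to be read against.

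Fibroblast markers also differed between the lines. Of 8 measured, 3 rose (Dcn, Pdgfrb and, on chromosome 6, Col1a2), a share of 37.5%, against 13.4% of all genes. The summed linear signal of the 8 was 3523 to 3632 on the heterozygous and 494 to 559 on the wild-type arrays. Most of the heterozygous sum came from Dcn and Pdgfrb. Col3a1 (a difference of 0.10), Pdgfra (0.15), Lum (−0.10), Thy1 (−0.14) and Col1a1 (−0.20) did not pass. Of 6 keratinocyte markers 0 passed by limma, 1 had an unadjusted p below 0.05, and of 6 endothelial markers 1 rose (Vwf, on chromosome 6, by 0.38; its call was lost without heterozygous replicate 2 or 3 or wild-type replicate 1, at adjusted p 0.0683 to 0.0923). The part of other cell types in the rises of tetraspanin genes was not tested, and in bulk RNA a change in the number of cells of a type and in the RNA per cell cannot be told apart.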

How the data were processed

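RNA of 3 arrays per line was labelled with biotin and hybridised to 1-colour Affymetrix arrays. The authors deposited log2 values produced with RMA (background correction, normalisation between arrays and 1 summary per probe set), per the submitters' processing notes, which also name Partek; versions, and the role of Partek, were not stated in those notes. There were 41345 probe sets, of which 23521 had 1 gene symbol, 1814 several and 16010 none listed. Values were used without rescaling or a filter on dim genes, and 0 pairs of arrays were identical. An array gives no counts, so the number of arrays limits precision. Replicates are not said to be separate cultures, so p-values reflect the spread of these arrays alone.

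Differences were tested in R 4.3.3 with limma 3.58.1 (linear model with empirical Bayes moderation, 2-sided, 4 residual and 7.87 total degrees of freedom). Chromosomes came from RefSeq for GRCm38.p6, in which all 26 members had an entry. Every member was named; of each list of related or partner genes, up to 4 genes that passed, by size, or, where none passed, the 2 brightest, and others are said to be singled out. Genes of the cell type marker lists fall outside this rule and were named after their values were seen. The members, lists and tests were chosen with earlier results of these data known. Replicate numbers are not said to mark a shared culture or day, so the main fit used no replicate block. Arrays with the same replicate number did not deviate together (r 0.007, 0.016 and −0.004 across genes).

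As alternatives, each array was left out in turn, arrays were centred on their medians, quantile normalized or weighted, dim genes were dropped, probe sets of a gene were averaged, the eBayes prior was changed or omitted, and the replicate number was used as a block. Chromosome 6 left out and sex chromosomes left out were added after seeing the data.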

Additional observations from a re-analysis of the deposited data

How the results depend on the processing

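The count of 11 tetraspanins that passed was 5 without variance moderation, 9 with a replicate block (8 higher, 1 lower; Tspan14 and Tspan3 lost their calls at adjusted p 0.0529 and 0.067) and 7 of 21 with chromosome 6 left out, and between 7 and 12 with single arrays left out; the other alternatives gave 10 to 12. The count of 5 at least 2-fold was 3 without moderation, 2 with chromosome 6 left out, 5 with the block, and 4 or 5 with single arrays left out. Over all genes, 2967 passed, against 1717 without moderation, 2512 with the block and 1768 to 4222 with single arrays left out. With chromosome 6 left out, 2650 genes passed. Sox10 did not pass under any alternative (adjusted p 0.0564 to 0.428; 0.289 with the replicate block). Tspan5 passed under every alternative, as did Tspan12, Tspan11, Tspan9 and Cd9 under all but the omission of chromosome 6, on which they lie. Tspan10 and Cd82 lost their calls without moderation (adjusted p 0.11 and 0.0746), and Tspan2 passed with array weights (adjusted p 0.048), which gave wild-type replicate 2 a weight of 0.329. Of 433 values of single tetraspanins, 406 stayed on the same side of the threshold, 25 lost and 2 gained a call, and 0 called values changed sign. With arrays centred on their medians or quantile normalized, 11 tetraspanins passed, with all genes shifted by 0.03 and 0.01. Leaving out arrays or chromosomes leaves fewer arrays or genes in the fit, and the cause of the lost calls was not tested.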
